A study of Mus musculus with 2 samples.

Results

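The Myc network transcription factors were examined in 2 libraries of mouse morulae through 7 genes chosen by name: Myc, Mycn, Mycl, Max, Mga, Mlx and Mnt. All 7 were present among the 12836 genes of the deposited table. Both pools were ICR embryos at the morula stage, the compacted embryo that precedes the blastocyst, and polyadenylated RNA of pooled embryos was sequenced after SMART-seq2 amplification. The dsNat10 group had received double-stranded RNA against Nat10, the enzyme that writes N4-acetylcytidine on RNA, and the dsGFP group had received double-stranded RNA against GFP, a sequence foreign to the mouse. Both groups had thus been injected, and no library of uninjected embryos is among these 2. Each group is a single library. The differences below therefore lack any replicate check and describe these libraries only.

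The members share a basic helix-loop-helix leucine zipper domain, through which they pair with one another and bind the E-box, most often CACGTG. Myc, Mycn and Mycl need Max as partner to bind DNA and are known as activators of genes for ribosome production, metabolism and division. Mnt and the related Mxd proteins also pair with Max, but recruit Sin3 corepressors to the same sites. Mga pairs with Max as well, within a Polycomb complex (PRC1.6) that silences germline genes, while Mlx pairs with the glucose-responsive proteins Mlxip and Mlxipl. In pluripotent cells of the mouse embryo, loss of Myc activity is known to bring a dormant state that resembles diapause.

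Of the 7 members, 6 have a promoter window in the RefSeq table of GRCm38.p6, which takes 250 bases before to 50 bases after an annotated start. The exception is Myc. The windows of Max, Mlx and Mnt hold CACGTG, and those of Mycn, Mycl and Mga do not. These promoters are shown because the network's own binding letters lie in genes of the network, with the E-box in capitals.
Max (chr12:76962199-76962498, minus strand): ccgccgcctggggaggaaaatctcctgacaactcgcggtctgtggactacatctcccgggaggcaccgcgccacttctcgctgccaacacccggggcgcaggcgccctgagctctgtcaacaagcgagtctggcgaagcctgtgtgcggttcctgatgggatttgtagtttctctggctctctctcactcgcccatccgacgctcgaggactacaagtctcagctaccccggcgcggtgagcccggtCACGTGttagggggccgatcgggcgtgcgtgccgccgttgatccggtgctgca
Mlx (chr11:101087040-101087339, plus strand): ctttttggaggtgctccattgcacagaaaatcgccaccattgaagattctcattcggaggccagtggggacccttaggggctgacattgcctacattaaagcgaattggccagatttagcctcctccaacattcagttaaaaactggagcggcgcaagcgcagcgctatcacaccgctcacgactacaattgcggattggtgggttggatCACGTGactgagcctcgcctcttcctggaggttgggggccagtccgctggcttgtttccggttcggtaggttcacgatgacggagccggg
Mnt (chr11:74830674-74830973, plus strand): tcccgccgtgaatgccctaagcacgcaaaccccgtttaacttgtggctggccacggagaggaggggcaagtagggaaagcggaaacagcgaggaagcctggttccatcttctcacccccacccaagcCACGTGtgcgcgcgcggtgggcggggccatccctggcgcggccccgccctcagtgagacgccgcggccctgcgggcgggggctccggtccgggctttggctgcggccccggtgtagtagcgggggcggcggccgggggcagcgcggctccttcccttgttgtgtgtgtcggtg
From the start that set each window, the E-box begins 3 bases upstream in Max, 40 in Mlx and 123 in Mnt. The gene spans given below begin upstream of these starts, and in Max and Mlx they take in the E-box. CACGTG reads the same on both strands, so 1 search covers both. It was found in 2349 of all 32851 windows (7.15%), and 1183 of the 10322 genes of the table that have a window hold it in at least 1 (11.5%). A match describes letters in the window and is not a measured binding site.

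The libraries held 28303119 reads (dsNat10) and 29139232 reads (dsGFP) after rounding of the estimated counts. Of the 12836 genes, 2657 had 0 reads in dsNat10 and 458 had 0 in dsGFP. The injected target was low where the label says so: Nat10 had 37 reads in dsNat10 and 886 in dsGFP, 23.7-fold lower (95% counting interval 17.1 to 33.9). Of 11 listed embryo markers in the table, all had reads in both libraries, and their summed CPM (reads per 1000000 reads, scaled as described under the processing) was 8156 in dsNat10 and 8708 in dsGFP, most of it from Dppa5a (4898 and 4562 CPM). Of these 11, 4 were called lower and 0 higher by the size rule given next, with a median log2 ratio of -0.73. They were Cdx2 (4.52-fold lower, past the filter through dsGFP alone), Nanog (3.17-fold, fractional counts), Tead4 (3.07-fold) and Krt8 (2.10-fold). Another 4 had log2 ratios above 0 and were not called: Klf5 (0.91), Gata3 (0.41), Tfap2c (0.34) and Dppa5a (0.10). The share called was 36.4%, against 30.5% of all genes. At a mean CPM of 50 or more, 3 of 10 markers were called, against 9.33% of all genes. The part of these markers in the members' values was not tested. Of 9 oocyte markers, 3 were in the table, and their summed CPM was 32.5 in dsNat10 and 5.54 in dsGFP. Zp3 (642 reads in dsNat10 and 106 in dsGFP) and H1f8 (286 and 0) were higher in dsNat10, while Gdf9 ran the other way (1 and 54). Of 7 cumulus cell markers 2 were in the table (summed CPM 29.1 and 34.0), as were 4 of 8 blood, endothelial and fibroblast markers (92.2 and 73.3). Calls were made by a size rule: a mean CPM of 5 or more, a log2 ratio of CPM + 1 of at least 1 in size, and a 95% counting interval of the ratio that excludes equality. By this rule 30.5% of the 8738 genes that met the limit on the mean were called, 15.2% higher and 15.3% lower. The share was 54.7% at a mean CPM of 5 to under 20, 31.6% at 20 to under 50, and 9.33% at 50 or more.

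Myc was lower in the dsNat10 library, Max was at nearly the same level, and Mnt was higher. Among the 5 members that passed the mean filter, 1 was called lower (Myc), 1 was called higher (Mnt) and 3 were not called (Max, Mga and Mlx), with a median log2 ratio of -0.02 against 0.01 over all genes that passed. The other 2 members, Mycn and Mycl, lay under the filter and had fewer reads in dsNat10. Over all 7, with the zero of Mycn at its bound, the median log2 of the plain ratio was -0.56, against -0.20 over 12337 genes treated alike. All 7 have a mean CPM below 50, where calls are common among all genes, so 2 of 5 is not a result about the members. In pooled embryos, fewer cells that hold a transcript and less of it per cell cannot be told apart.

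Myc (Entrez gene 17869, chromosome 15, 61985341 to 61990361, GRCm38.p6), the widely expressed activator of the family, had 344 reads in dsNat10 and 1310 in dsGFP. On the TPM scale, which is per length, its level was 8.04 in dsNat10 and 29.1 in dsGFP. The dsNat10 value was the low one, 3.77-fold lower in CPM (3.34 to 4.26), with a log2 ratio of -1.83. In the band of 20 to under 50 CPM, 117 of 2200 genes (5.32%) had a log2 ratio as low. The gene's reads were whole numbers, and no other GENCODE M21 gene overlaps its exons. In every alternative scaling, unit and pseudocount tried, Myc stayed below the limit, with log2 ratios from -1.89 to -1.56.

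Mycn (Entrez gene 18109, chromosome 12, 12936093 to 12941836), the paralogue best known from neural and other embryonic progenitors, had 0 reads in dsNat10 and 114 in dsGFP. Against a floor of 3 reads in dsNat10 (0.105 CPM) its bound was 37.6-fold lower, and its 95% counting interval starts at 30.1-fold. Such zeros were frequent: among 1161 genes with 60 to under 120 reads in dsGFP, 553 (47.6%) had 0 in dsNat10, and for the same range of dsNat10 reads, 47 of 445 genes (10.6%) had 0 in dsGFP. The bound on Mycn does not cover them. Mycl (Entrez gene 16918, chromosome 4, 122995588 to 123002490), the third paralogue, had 26 reads against 68, a level of 0.43 TPM against 1.07 TPM, and was 2.59-fold lower (1.63 to 4.24). All 3 paralogues thus had their lower value in dsNat10, and Myc held most of their summed level in both libraries, 94.9% of 8.47 TPM in dsNat10 and 89.6% of 32.5 TPM in dsGFP. That sum was 3.83-fold lower in dsNat10. Mycn and Mycl lie under the mean filter. With no filter, 1681 of all genes were called higher and 3252 lower, against 1330 and 1334 with it. Fewer reads in dsNat10 were thus common among genes at such levels.

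Max (Entrez gene 17187, chromosome 12, 76937269 to 76962323), the common partner, had 315 reads in dsNat10 and 324 in dsGFP. Its level was 9.07 TPM in dsNat10 and 8.85 TPM in dsGFP, and the CPM ratio was 0.982 with a counting interval of 0.838 to 1.15, which includes equality. At this depth no difference was detectable for Max. The summed level of the 3 Myc paralogues was 3.67 times that of Max in dsGFP and 0.934 times in dsNat10.

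Mnt (Entrez gene 17428, chromosome 11, 74830806 to 74845725), the broadly expressed antagonist whose promoter is printed above, had 208 reads in dsNat10 and 84 in dsGFP. Its level was 2.44 TPM against 0.94 TPM, and it was 2.50-fold higher in CPM (1.93 to 3.26), with a log2 ratio of 1.08. Its mean of 5.10 CPM is just inside the filter, which it passed through dsNat10 alone (7.28 CPM against 2.91). In the band of 5 to under 20 CPM, 752 of 2992 genes (25.1%) had a log2 ratio as high. The call on Mnt ended in TPM (log2 ratio 0.83), in FPKM (0.69) and with a pseudocount of 5 CPM (0.63). It also ended with a mean of 20 CPM or more and with a 3-fold limit. The log2 ratios in TPM and FPKM also have 1 added, which weighs more on values this small. The plain ratios of Mnt were 2.60 in TPM and 2.53 in FPKM.

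Mga (Entrez gene 29808, chromosome 2, 119872503 to 119970129), a very large protein with a T-box domain besides its leucine zipper, had 949.52 estimated reads in dsNat10 and 747.06 in dsGFP. These fractional counts make it uncertain, since reads could be split with another gene. The CPM ratio was 1.28 (1.17 to 1.42), under the size limit, and the deposited TPM of 4.98 and 2.95 gave a ratio of 1.69. The gene length implied by the deposited FPKM (estimated reads divided by FPKM and by the library's total) was 9.87 kb in dsNat10 and 12.4 kb in dsGFP. A difference of more than 1.2-fold in implied length was found in 292 of 7668 genes (3.81%), while for Myc the implied lengths were 2.21 kb and 2.21 kb. Protein-coding transcripts of Mga in GENCODE M21 run from 6995 to 13931 nucleotides.

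Mlx (Entrez gene 21428, chromosome 11, 101086707 to 101092207), the partner of the glucose-responsive branch, was the most abundant member per length in both libraries. It had 947 reads in dsNat10 and 1411 in dsGFP, or 28.5 TPM and 41.6 TPM. The CPM ratio was 0.678 (0.624 to 0.737), with a log2 ratio of -0.55 that did not reach the size limit. Its exons overlap those of Psmc3ip on the other strand by 385 bases, and the library kit does not mark strand, so reads there cannot be told apart. Psmc3ip had 2750 reads in dsNat10 and 2186 in dsGFP, the opposite order.

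**Figure D1:**
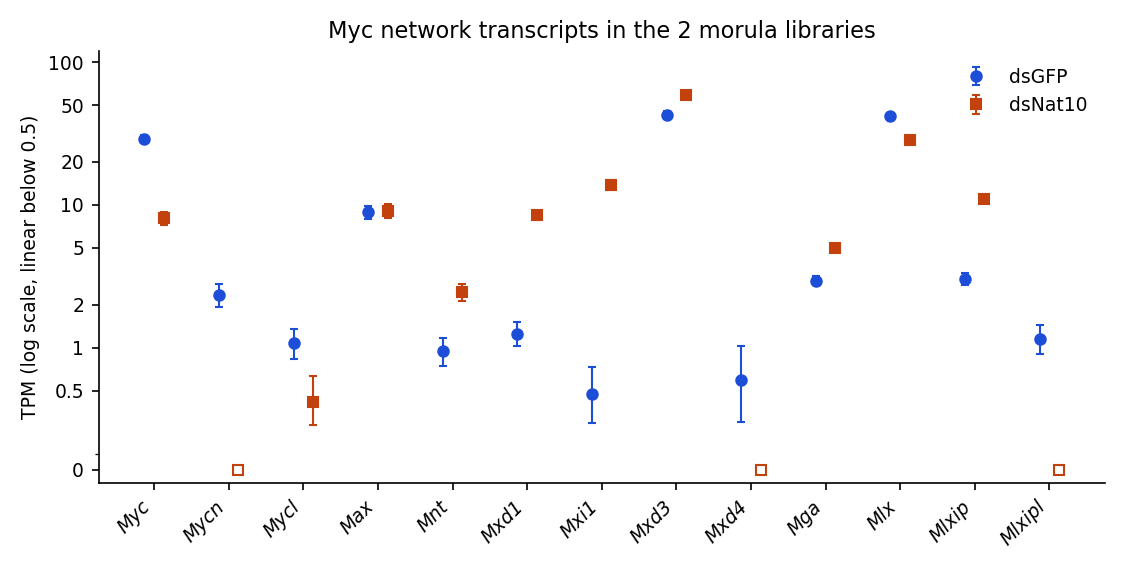
TPM of the 7 members and 6 further partners (x axis) in the dsGFP library (circles) and the dsNat10 library (squares), on a y axis that is logarithmic above 0.5 TPM and linear below it. Bars are exact 95% intervals of the read counts, open squares mark genes with 0 reads, and Max is the gene whose symbols lie side by side while Myc lies at 29.1 TPM in dsGFP and 8.04 TPM in dsNat10.

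The order of the members per length differed between the libraries. In dsGFP the TPM order was Mlx, Myc, Max, Mga, Mycn (2.32), Mycl (1.07) and Mnt (0.94). Counting intervals overlapped there between Mga (2.74 to 3.17) and Mycn (1.91 to 2.79) and between Mycl (0.831 to 1.36) and Mnt (0.750 to 1.16). In dsNat10 it was Mlx, Max, Myc, Mga, Mnt, Mycl (0.43) and Mycn, listed at 0, and the intervals of Max (8.10 to 10.1) and Myc (7.21 to 8.94) overlapped. Mnt was thus below every Myc paralogue in dsGFP, though not beyond the counting error of Mycl, and above Mycl and Mycn in dsNat10.

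Genes whose pair of levels lay nearest were found by the distance in log2(TPM + 1) over the 2 libraries, which is a weak measure of likeness with so few points. Nearest to Myc were Ap3m1 (7.84 TPM in dsNat10 and 29.1 TPM in dsGFP, distance 0.032, fractional counts) and Zfp1 (8.40 and 28.8 TPM, distance 0.057). Nearest to Max were Mtmr9 (distance 0.018) and Prdm2 (0.024), and nearest to Mga were Zbtb8b (0.034) and Shroom3 (0.037). For Mlx, Fam83d was near (0.031), and for Mnt the nearest were Mid1 (0.0074) and Sh3tc2 (0.051).

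The remaining partners of the network lie outside the 7 members, and 4 of these 6 genes passed the mean filter. Of these 4, 3 were called higher and 0 lower, where 54.7% of all genes at 5 to under 20 CPM and 31.6% at 20 to under 50 CPM were called in either direction. With no filter on the mean, Mlxipl was also called lower. Over all 6, with zeros at their bound, the median log2 of the plain ratio was 1.11. Mxd1, a repressor that pairs with Max as cells stop dividing, had 734 reads in dsNat10 and 114 in dsGFP and was 6.50-fold higher (5.33 to 7.995). Mxi1, a repressor of the same family, had 595 reads against 21 and was 28.6-fold higher (18.6 to 46.6). Both have a mean CPM of 5 to under 20 and passed the filter through dsNat10 alone, with 3.95 CPM and 0.728 CPM in dsGFP. In that range 8.99% of genes had a log2 ratio as high as that of Mxd1, and 3.71% as high as that of Mxi1. Mxd3, the family member known from dividing cells, was the most abundant of them, with 1262 reads against 958 (58.6 TPM against 42.3 TPM), with a CPM ratio of 1.33 (1.22 to 1.45) that did not reach the size limit. Its exons overlap those of Prelid1 on the other strand by 105 bases. Mxd4, a further repressor, had 0 reads against 12, 3.96-fold lower by its bound (counting interval from 2.75).

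Summed per length, the antagonists Mnt, Mxd1, Mxi1, Mxd3 and Mxd4 had 83.2 TPM in dsNat10 and 45.6 TPM in dsGFP, 1.83-fold higher in dsNat10. The sum of the Myc paralogues was 0.102 times that of the antagonists in dsNat10 and 0.712 times in dsGFP. Mxd3 made up 70.4% of the antagonist sum in dsNat10 and 92.8% in dsGFP. Without Mxd3, chosen for this comparison after its values were seen, the antagonists had 24.7 TPM against 3.26 TPM. The Myc paralogues then had 0.343 times the level of the antagonists in dsNat10 and 9.96 times their level in dsGFP. Mnt, Mxd1 and Mxi1, which remain in that sum, passed the filter through dsNat10 alone. The ratios without Mxd3 therefore cannot show a change of balance. With Mxd3 kept, the Myc paralogues lay below the antagonists in both libraries. These ratios rest on transcript levels in 1 library each. Of the 3 oocyte markers in the table, Zp3 and H1f8 were also higher in dsNat10 and Gdf9 was not, and their part in the antagonists' values was not tested.

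Mlxip and Mlxipl, the glucose-responsive partners of Mlx, had their higher values in opposite libraries. Mlxip had 1518 reads in dsNat10 and 437 in dsGFP and was 3.51-fold higher (3.15 to 3.91), with fractional counts that make it uncertain. In the band of 20 to under 50 CPM, 4.77% of genes had a log2 ratio as high. Mlxipl, known from liver and fat, had 0 reads against 78, 25.7-fold lower by its bound (counting interval from 20.4). It lies in the range of reads where zeros in dsNat10 were frequent. Of 13 listed target genes of this branch in the table, 10 passed the filter and 0 were called (against 30.5% of all genes, and 9.33% at 50 CPM or more, where 7 of the 10 lie), with a median log2 ratio of -0.15. The most abundant, Acly, which makes acetyl-CoA for lipid synthesis, was 1.16-fold lower (1.13 to 1.19). The glucose-responsive genes Txnip and Arrdc4, named after their values were seen, lay under the filter, with 0 reads against 69 for Txnip and 241 against 0 for Arrdc4.

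**Figure D2:**
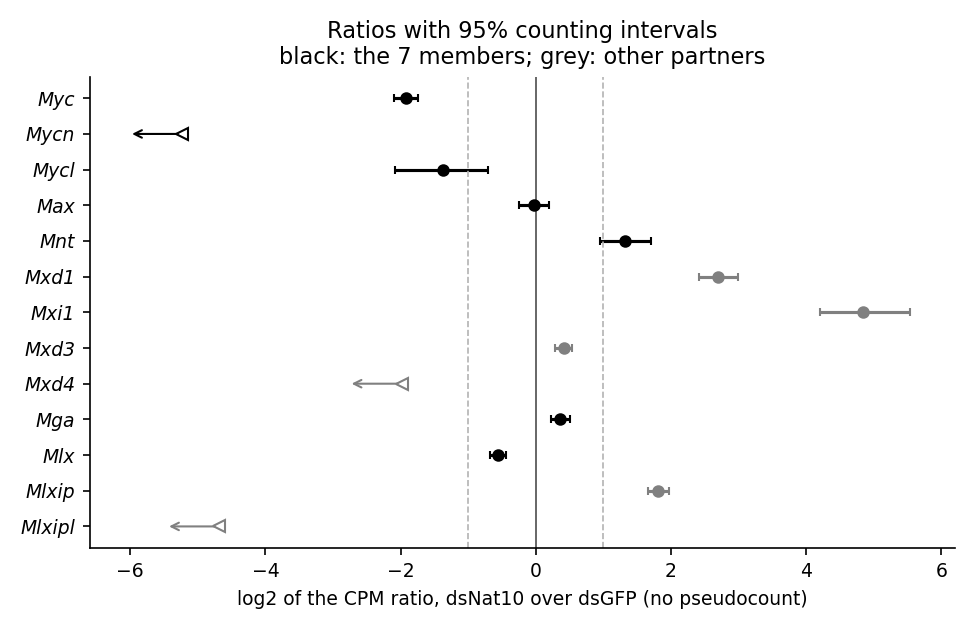
Log2 of the plain CPM ratio of dsNat10 over dsGFP (x axis) for the 7 members (black) and 6 further partners (grey), with exact 95% counting intervals. Open triangles with arrows mark genes with 0 reads in dsNat10, drawn at their bound, dashed lines mark a ratio of 2 in either direction, and Myc lies to the left while Mnt, Mxd1, Mxi1 and Mlxip lie to the right.

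**Figure D3:**
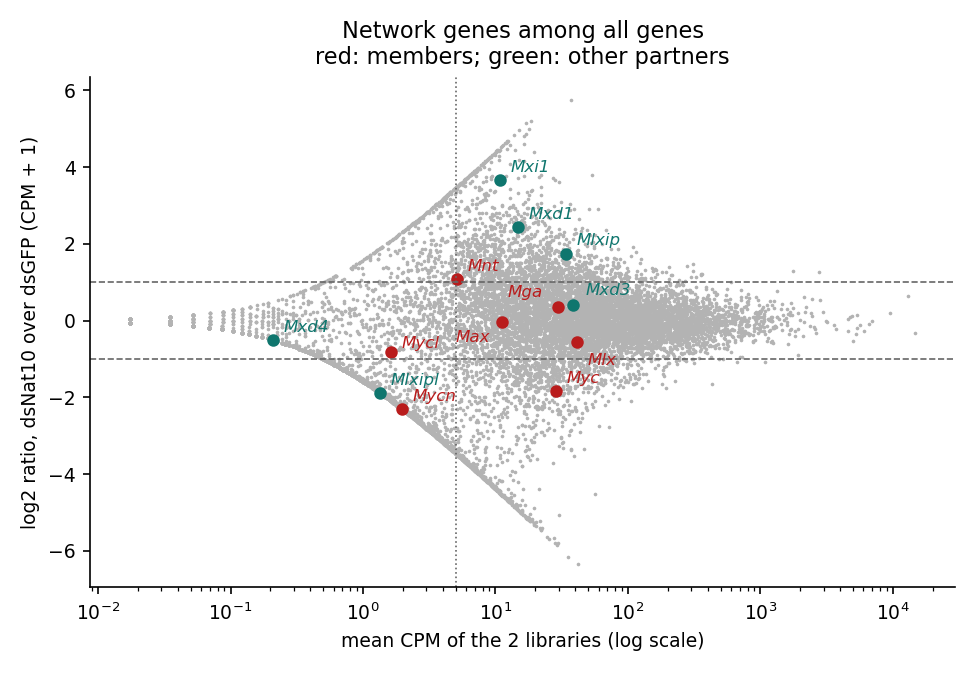
Log2 ratio of CPM + 1 (y axis) against the mean CPM of both libraries on a log axis (x axis) for all genes with reads (grey), the members (red) and the further partners (green). The dotted line marks the filter of 5 CPM and the dashed lines the size limit of 1, and every network gene lies below a mean of 50 CPM, where ratios of this size are frequent among all genes.

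Nucleolar genes known as Myc targets showed no shared direction. All 42 listed genes passed the filter, 1 was called higher and 2 lower, 19 had a log2 ratio above 0 and 23 below 0, and the median was -0.05 against 0.01 over all genes. All but 1 of them had a mean CPM of 50 or more, where 9.33% of all genes were called, and the 3 called were among these 41. Rrp12, an assembly and export factor of both ribosomal subunits, had 1335 reads in dsNat10 and 2846 in dsGFP and was 2.11-fold lower (1.98 to 2.25). Bysl, an assembly factor of the small subunit, was 2.05-fold lower (1.98 to 2.12), with fractional counts. Gar1, a protein of the particles that guide pseudouridylation, had 2649 reads against 1297 and was 2.06-fold higher (1.93 to 2.21). Nhp2, of the same particles and the most abundant per length, had 1719 TPM in dsNat10 and 1551 TPM in dsGFP and was 1.07-fold higher (1.05 to 1.08). In TPM and in FPKM the number called was 1. The summed level of the 42 genes was 10344 TPM in dsNat10 and 10447 TPM in dsGFP, which differ by a factor of 1.01. This sum holds abundant genes of opposite order, so it does not show that each gene was steady. Npm1 had 1235 TPM in dsNat10 and 1772 TPM in dsGFP, and Nop56 had 980 TPM and 650 TPM. Whether these genes follow the level of Myc was not tested.

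The promoter windows of 8 of the 36 nucleolar targets that have one hold CACGTG (22.2%), against 11.5% of all genes with a window. The stretches of 30 bases around the first E-box are shown for these 8, among them Nop2, the nucleolar methyltransferase gene named in the study's title.
Nop2 (chr6:125131811-125131840, plus strand): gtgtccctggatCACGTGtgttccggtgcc
Imp4 (chr1:34439696-34439725, plus strand): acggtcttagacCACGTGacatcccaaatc
Grwd1 (chr7:45830740-45830769, minus strand): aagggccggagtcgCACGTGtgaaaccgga
Pes1 (chr11:3963965-3963994, plus strand): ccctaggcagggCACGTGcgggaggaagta
Wdr43 (chr17:71616220-71616249, plus strand): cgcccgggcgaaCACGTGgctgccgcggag
Rrn3 (chr16:13780472-13780501, plus strand): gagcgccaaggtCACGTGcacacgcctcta
Mybbp1a (chr11:72441347-72441376, plus strand): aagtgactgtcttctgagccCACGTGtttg
Utp20 (chr10:88826765-88826794, minus strand): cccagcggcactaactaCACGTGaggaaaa
None of the 8 was called by the size rule, and 4 had a log2 ratio below 0. Their log2 ratios ran from -0.53 for Imp4 and -0.51 for Nop2 to 0.61 for Mybbp1a and 0.98 for Utp20. Their median was 0.06, and that of the 28 nucleolar targets with a window but no E-box was -0.05. Over all genes that passed the filter, the 882 with an E-box had a median log2 ratio of 0.01 and 27.3% called, and the 6234 without one had a median of 0.00 and 30.6% called. Genes with the E-box in such a window and genes without it there had nearly the same distribution of ratios. E-boxes outside the windows were not searched and binding was not measured, so this comparison cannot tell whether genes bound by Myc differed.

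**Figure D4:**
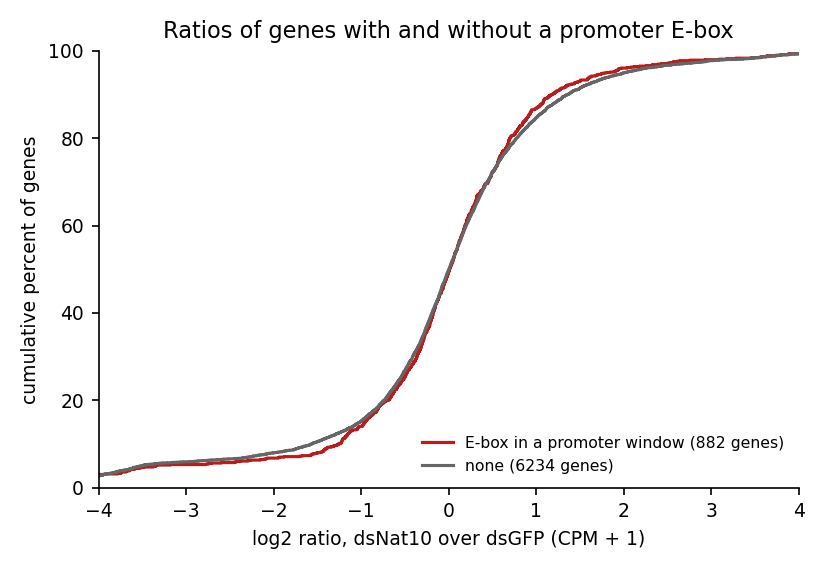
Cumulative percent of genes (y axis) by log2 ratio of dsNat10 over dsGFP in CPM + 1 (x axis), for 882 genes with an E-box in a promoter window (red) and 6234 without one (grey), among genes that met the limit on the mean. The lines lie close together over the whole range, and both cross 50 percent near a ratio of 0.

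Myc targets outside the nucleolus were called in 6 of 38 genes that passed the filter, of 41 in the table, with 2 higher and 4 lower and a median log2 ratio of -0.13. The list was not split into targets that Myc raises and targets that it lowers, so its median has no set direction. The share called was 15.8%, against 30.5% of all genes, and at 50 CPM or more it was 2 of 32 genes, against 9.33%. Slc29a2, a nucleoside transporter, had 20 reads in dsNat10 and 369 in dsGFP and was 18.3-fold lower (11.7 to 30.2), with fractional counts. Slc2a1, a glucose transporter, was 3.09-fold lower (2.91 to 3.28), with 1405 reads against 4382. Slc7a5, an amino acid transporter with fractional counts, was 2.83-fold lower (2.17 to 3.72). Mcm5, a subunit of the replicative helicase and the remaining gene called lower, had a log2 ratio of -1.01. Slc19a1, a folate transporter, was 3.41-fold higher (3.05 to 3.81), and Ldha, which makes lactate, had 2032 reads against 821 and was 2.50-fold higher (2.30 to 2.71). Nme1, a nucleotide kinase and the most abundant per length, was 1.04-fold lower (1.02 to 1.06).

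Genes of the PRC1.6 complex, in which Mga and Max act, had 2 of 13 called higher and 0 lower (15.4%, against 30.5% of all genes called and 15.2% called higher), with a median log2 ratio of 0.31. This share is no result about the complex. E2f6, the repressive E2F protein of the complex, had 706 reads in dsNat10 and 131 in dsGFP and was 5.44-fold higher (4.51 to 6.61). Rybp, a subunit of several Polycomb complexes, was 2.39-fold higher (2.18 to 2.63). Cbx3, a heterochromatin protein and the most abundant, was 1.24-fold higher (1.22 to 1.25). Of 22 listed germline genes known to be silenced by this complex, 16 were in the table. Of those 16, 14 passed the filter, 5 were called higher and 2 lower, with a median of 0.49. That is 7 of 14 called, near the 54.7% of all genes at a mean CPM of 5 to under 20, where most of them lie. Mael, Sycp3, Ddx4 and Tex101 lie at 20 to under 50 CPM, where 31.6% of all genes were called, and 2 of them were called. The median moved between 0.19 and 0.73 with the processing.

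Germline genes of this list often had an E-box in the promoter. Of 15 with a window, 10 hold CACGTG (66.7%), against 11.5% of all genes. The 30 bases around the first E-box are shown for these 10, since Mga and Max are known to bind such sites.
Hormad1 (chr3:95559608-95559637, plus strand): caaagggtgcgcCACGTGccagtgacagtt
Slc25a31 (chr3:40708766-40708795, plus strand): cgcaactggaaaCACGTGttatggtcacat
Tdrd9 (chr12:111971382-111971411, plus strand): ggtctccataaaCACGTGcctgtccaggtc
Ddx4 (chr13:112652322-112652351, minus strand): ggcgtccgcccgCACGTGcagccgtttaag
Sycp1 (chr3:102936177-102936206, minus strand): tagagaacccggCACGTGggaagggaaatc
Mov10l1 (chr15:88982744-88982773, plus strand): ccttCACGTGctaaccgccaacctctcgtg
Stk31 (chr6:49395472-49395501, plus strand): aggccggccaccCACGTGaccagggctgcg
Sycp3 (chr10:88459511-88459540, plus strand): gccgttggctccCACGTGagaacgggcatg
Mael (chr1:166238950-166238979, minus strand): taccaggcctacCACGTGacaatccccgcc
Stag3 (chr5:138280327-138280356, plus strand): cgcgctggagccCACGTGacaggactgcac
Among these 10, 3 were called higher and 2 lower, and 3 had a log2 ratio below 0. All lie below a mean of 50 CPM. Of all genes, 54.7% were called at 5 to under 20 CPM and 31.6% at 20 to under 50 CPM. The count is thus no result about genes with an E-box. Hormad1, a protein of meiotic chromosome axes, had 822 reads in dsNat10 and 117 in dsGFP and was 7.10-fold higher (5.84 to 8.69). Slc25a31, the ADP/ATP carrier of germ cells, had 430 reads against 68 and was 6.39-fold higher (4.94 to 8.38), and Tdrd9, a helicase of the piRNA pathway, was 3.62-fold higher (3.13 to 4.20). Stag3, the meiotic cohesin subunit, had 0 reads against 903, 298-fold lower by its bound (counting interval from 242). Its zero lies in the library where zeros were the more frequent. Mael, also of the piRNA pathway, was 2.42-fold lower (2.14 to 2.75), and Sycp3, of the synaptonemal complex and the most abundant per length, had a CPM ratio of 0.692 (0.625 to 0.765). Several of these genes are also active in oocytes, and of the oocyte markers Zp3 and H1f8 were higher in dsNat10 and Gdf9 lower, by the reads given above. Their part in these values was not tested.

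Chromatin cofactors of Myc had 2 of 17 called higher and 0 lower, with a median of 0.03. Of these, 15 had a mean CPM of 50 or more and 2 of the 15 were called, where 9.33% of all genes were. Ep400, the ATPase of the TIP60 acetyltransferase complex, had 3512 reads against 1282 and was 2.77-fold higher (2.60 to 2.95). Ruvbl2, the most abundant per length, had 26825 reads against 26641 with fractional counts. Among the Sin3 and NCoR corepressors used by Mnt and the Mxd proteins, 1 of 11 was called higher and 1 lower (18.2%, against 30.5% of all genes), with a median of 0.05. Sap30, a subunit of the Sin3 complex, had 279 reads against 25 and was 11.3-fold higher (7.48 to 17.7). Ncor1 had 75 reads in dsNat10 and 481 in dsGFP, 6.35-fold lower (4.97 to 8.21), with fractional counts. Rbbp7, the most abundant, was 1.03-fold higher (1.02 to 1.05), also with fractional counts.

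Of 19 enzymes and adaptors that act on the Myc protein or its stability, 2 were called higher and 3 lower, with a median of 0.13. That is 26.3%, against 30.5% of all genes. At a mean CPM of 50 or more it was 2 of 10, against 9.33% of all genes. Counts this small are no result about the list. Trim32, a ubiquitin ligase, had 0 reads against 1019, 336-fold lower by its bound (counting interval from 273). Its zero lies in dsNat10, where zeros were the more frequent over all genes. Skp2, the F-box protein that ubiquitinates Myc, had 898 reads in dsNat10 and 2306 in dsGFP, 2.54-fold lower (2.35 to 2.75), and the kinase Plk1 was 2.06-fold lower (1.99 to 2.13). Fbxo28, an F-box protein, and Gsk3a, a kinase that marks Myc for degradation, were 2.58-fold (2.05 to 3.27) and 2.30-fold (1.88 to 2.82) higher. Set, the most abundant, was 1.07-fold lower (1.06 to 1.08). Of 16 regulators of Myc transcripts and their transcription, 0 were called, 12 had a log2 ratio below 0 and the median was -0.31. Over all genes that passed, 30.5% were called and 49.5% had a log2 ratio below 0. Of the 16, 9 had a mean CPM of 50 or more, where 9.33% of all genes were called. The most abundant of these, Hnrnpk, was 1.08-fold lower (1.06 to 1.09). Max, Mga and the cofactor Wdr5 are counted in PRC1.6 too, and Hk2 stands in both target lists outside the nucleolus. Among the list genes named as called, E2f6, Sap30, Hormad1, Slc25a31, Gsk3a and Fbxo28 passed the filter through dsNat10 alone, and Ncor1, Slc29a2, Slc7a5, Stag3 and Trim32 through dsGFP alone.

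**Figure D5:**
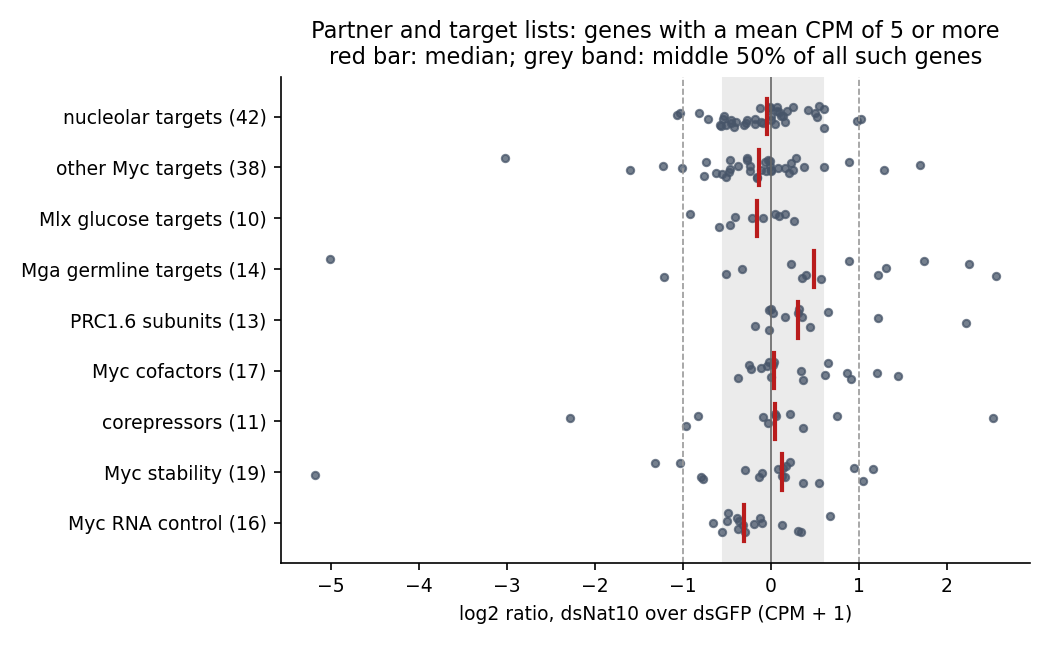
Log2 ratio of dsNat10 over dsGFP in CPM + 1 (x axis) of each gene that passed the filter in 9 lists of partners and targets (y axis, with the number of genes), spread vertically at random within a list. Red bars are medians, the grey band is the middle 50 percent of all genes that passed, dashed lines mark the size limit, and the nucleolar targets lie mostly inside the band with a median of -0.05.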

How the data were processed

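Polyadenylated RNA of 2 pools of mouse morulae was sequenced, 1 library per group (dsNat10, dsGFP). The design text speaks of 50 morulae, without saying whether per library. Trimming with Trim Galore, mapping to GRCm38 with HISAT and counting with HTSeq are named per the submitters' processing notes, with no versions or annotation. The authors deposited estimated counts (not normalized, fractional for 23.2% of genes), FPKM values and TPM values. These counts were rounded and expressed as CPM with TMM factors of edgeR 4.0.16 in R 4.3.3, and TPM served for levels between genes. The log2 ratio is of CPM + 1, or of TPM + 1 or FPKM + 1 where those units were tried, and folds are plain CPM ratios. Intervals are exact (Clopper-Pearson, 95%) and cover counting error only, since reads amplified by PCR, lacking molecular identifiers, are not independent. A gene at 0 was set to a floor of 3 reads for its bound. No p-value was computed. Positions are from RefSeq (GRCm38.p6), matched by Entrez identifier for 12800 genes, and exons from GENCODE M21.

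The genes named are the 7 members, Nat10, the 6 other partners, up to 3 called genes per direction and the most abundant gene per list, and the 2 nearest genes in TPM for each member that passed. Some genes chosen this way are not reported here but count in the totals. The members and the 10 lists, written from general knowledge, were chosen with earlier results of these data known. The limits of 20 and 50 CPM used to group genes by abundance were chosen after seeing the data. Alternatives were plain totals, DESeq2 1.42.0 size factors, TPM, FPKM, pseudocounts of 0.25 and 5, no filter or 20 CPM, and limits of 1.5-fold and 3-fold. Leaving out genes with fractional counts was added after seeing the data.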

Additional observations from a re-analysis of the deposited data

How the results depend on the processing

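Myc was called lower under every alternative run, while the call on Mnt depended on the processing. The number of members called was 2 and became 1 in TPM, in FPKM, with a pseudocount of 5, with a mean of 20 CPM or more and with a 3-fold limit, and 3 with no filter on the mean, where Mycn was called lower (-2.31). The log2 ratio of Nat10 (-3.79) was -3.07 in TPM, -2.77 in FPKM, -4.32 with a pseudocount of 0.25 and -2.50 with one of 5. Without a pseudocount, Nat10 was 22.7-fold lower in TPM and 23.7-fold lower in CPM. Over all genes, 2664 were called, 4933 with no filter (34.1% of them higher, against 49.9%), 1026 with a mean of 20 CPM or more, 4277 with a 1.5-fold limit and 1517 with a 3-fold limit. The 3 calls among nucleolar targets became 1 in TPM, 1 in FPKM, 8 with a 1.5-fold limit and 0 with a 3-fold limit, and that list's median stayed between -0.08 and -0.02. The called ratios of Myc, Mnt and Nat10 kept their sign, while that of Max, not called, ran from -0.04 to 0.03. The median of the list on Myc stability changed sign with a mean of 20 CPM or more (0.13 to -0.01). With 1 library per group, no replicate could be left out. No paired analysis was possible because each group has 1 library. Low read numbers limit Mycn, Mycl, Mxd4 and Mlxipl most, with at most 114 reads in either library.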
